A study of Mus musculus with 30 samples.

Results

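The 40 genes described here are known from the cells that line blood and lymphatic vessels, although other cells also express some of them. They were followed through the 5 stages of a chemically induced oral cancer in mice. The genes were chosen by symbol, as named endothelial and lymphatic genes, with earlier results of these data known. Each matched 1 of the 55487 Ensembl genes in the deposited count table. All 40 had enough counts to be tested. They fall into 25 pan-endothelial genes, 8 angiogenic genes, 4 genes of activated vessels and 3 lymphatic genes. The samples came from male C57BL/6J mice, and the protocol given for every sample is 4-nitroquinoline-1-oxide (4NQO), a DNA-damaging carcinogen, at 100 ug/mL in the drinking water for 10 weeks from 6 weeks of age. The pathological stage in the labels gave 3 normal samples (codes D01 to D03), 8 hyperplasia samples (A01 to A08), 7 dysplasia samples (B01 to B07), 6 carcinoma in situ samples and 6 invasive carcinoma samples (both with codes in C). The same protocol is attached to the normal samples, so the labels do not say whether those mice took the carcinogen, and the tissue of all 30 is labelled as the tumour. No genetic change, transgene or pooling is named, and the labels do not say that each sample is 1 mouse.

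Endothelial cells form the inner wall of every vessel. Their identity rests on junction proteins that hold them together, on receptors for vascular endothelial growth factor (VEGF) and angiopoietin, and on transcription factors of the ETS and SOX families. Sprouting vessels raise genes of tip cells and of permeable new capillaries, whereas inflamed venules display selectins that slow passing leukocytes. Lymphatic endothelium shares most of these genes and adds the VEGF-C receptor, a hyaluronan receptor and the regulator PROX1. The 4NQO model is used to follow oral epithelium through hyperplasia and dysplasia to carcinoma.

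Libraries held 17725604 to 28023098 counts. Levels are in CPM, a gene's counts divided by the library's total after TMM scaling and put on a common scale, and fold changes are on the log2 scale with 1 standard error. A gene was called where edgeR's quasi-likelihood test, fitted to all 30 samples, gave a Benjamini-Hochberg adjusted p under 0.05 over 17638 genes. With no statement that samples are separate mice, the p-values reflect only how far samples of a stage lie apart, and that spread may be technical. The code letter follows the stage except within the carcinomas, so a batch that follows the letters and the stage cannot be told apart in any other comparison. In bulk RNA, fewer vessel cells and less RNA per vessel cell cannot be told apart either. A list of 20 skeletal muscle genes fell as well. In invasive carcinoma against normal tissue 18 of the 20 were called lower, where 22.7% of all genes were. The summed level of the list was 65754 to 89789 CPM in normal tissue, 42635 to 75975 in hyperplasia, 31850 to 57938 in dysplasia, 32068 to 56358 for carcinoma in situ and 20011 to 48096 for invasive carcinoma. Most of a list of 10 basal keratinocyte genes moved the other way, with 8 genes higher and 1 lower in invasive carcinoma, where 23.4% and 22.7% of all genes were. None of these muscle or keratinocyte genes was at 0 in any sample, and the median over the 20 muscle genes in invasive carcinoma was -0.93.

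Most vessel genes were lower in the carcinomas, and invasive carcinoma had the most genes called. Against normal tissue, 2 of the 40 genes were lower and 2 higher in hyperplasia, where 6.07% of all genes were called lower and 8.22% higher. Dysplasia had 7 genes lower and 1 higher (12.4% and 13.3% of all genes), carcinoma in situ 22 lower and 3 higher (18.2% and 19.4%), and invasive carcinoma 29 lower and 3 higher (22.7% and 23.4%). The hyperplasia total of 4 called members became 1 without D02 and 2 without D01 or D03. Without D02 the totals became 3 in place of 8 for dysplasia and 15 in place of 25 for carcinoma in situ, which also had 16 without C07. The median log2 fold change of the 40 genes was -0.05 in hyperplasia, -0.29 in dysplasia, -0.47 for carcinoma in situ and -0.63 for invasive carcinoma, and the median over all genes lay from 0.01 to 0.02 each time. These 4 comparisons share the 3 normal samples. A comparison with none of them on either side, both carcinoma stages (n = 12) against both premalignant stages (n = 15), called 25 genes lower and 3 higher, against 18.8% and 19.6% of all genes. Its median was -0.32, and the normal samples still entered the shared fit behind its p-values. Across the 5 stages 31 of the 40 genes differed in any way, against 53.2% of all genes.

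The order of the stage means was counted for the members. Invasive carcinoma had the lowest mean for 33 of the 40 genes, and normal tissue the highest for 25 and hyperplasia for 11. For 18 genes the mean was lower at every step from normal tissue to invasive carcinoma. How many of all genes had such orders was not counted, so these counts stand without a background share. No gene was called at the last of these steps. In 19 genes every invasive sample lay below every normal sample, and in 3 genes every one lay above, where 15.2% and 17.2% of all tested genes did so. Sox7, Selp and Sele were those 3, and they were also the 3 members called higher in invasive carcinoma. The heat map shows these genes as red rows within a field that turns blue towards the right.

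**Figure D1:**
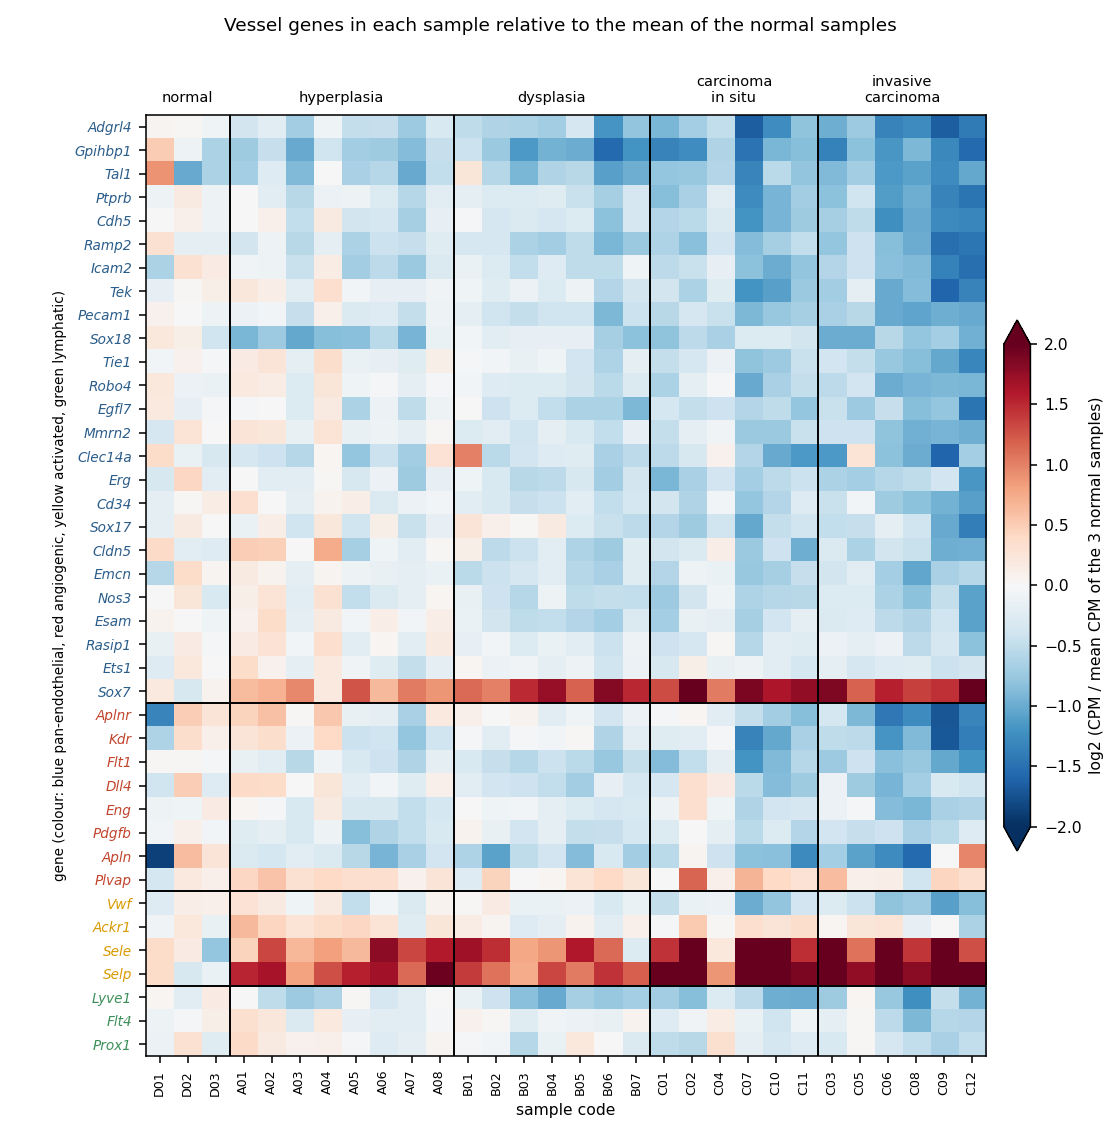
Each cell is the log2 ratio of 1 sample's CPM to the mean CPM of the 3 normal samples, for 40 vessel genes (rows, grouped and coloured as pan-endothelial, angiogenic, activated and lymphatic) in 30 samples (columns, by stage). Red is above and blue below the normal mean, with colours saturating at 2 log2 units; Sox7, Sele and Selp are red in the carcinomas, while most other rows are blue there.

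Of the 25 pan-endothelial genes, 21 were lower and 1 was higher in invasive carcinoma than in normal tissue, with a median log2 fold change of -0.75. Pecam1, Cdh5, Esam, Icam2 and Cldn5, which hold endothelial cells together, were among those that fell. Pecam1, the adhesion molecule CD31, had 109, 104 and 96.0 CPM in the normal samples. Its lowest, median and highest values were 74.4, 90.6 and 110 CPM in hyperplasia, 55.3, 78.2 and 91.3 in dysplasia, 54.99, 67.5 and 81.2 in carcinoma in situ, and 49.4, 52.01 and 69.96 in invasive carcinoma. Hyperplasia overlapped the normal samples, and every dysplasia and carcinoma sample lay below all of them. The log2 fold change was -0.44 ± 0.13 in dysplasia (adjusted p = 0.016), -0.60 ± 0.13 in carcinoma in situ (0.00132) and -0.86 ± 0.13 at the invasive stage (2.52e-05). The dysplasia call was lost without D01 (adjusted p = 0.0518) or D02 (0.0641).

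Cdh5, the cadherin of endothelial junctions, had the highest level per length of the 40 genes, 15.2 CPM per kb of exon over all samples. It averaged 44.0 ± 10.6 CPM in invasive carcinoma and 85.6 ± 6.04 CPM in normal tissue (SD, n = 6 and 3), a log2 fold change of -0.96 ± 0.19 (adjusted p = 0.000206), and all 6 invasive samples lay below every normal one. Cldn5, a tight junction protein, averaged 6.75 ± 1.34 CPM in invasive carcinoma and 10.1 ± 2.64 in normal tissue, and its call (-0.58 ± 0.24, adjusted p = 0.0498) was lost when any of 16 of the 30 samples was left out, with adjusted p from 0.0502 to 0.323. Esam, an adhesion molecule of the same junctions, was the 1 member lower in dysplasia than in hyperplasia, at 21.9 ± 2.85 against 31.3 ± 3.72 CPM (log2 fold change -0.51 ± 0.11, adjusted p = 0.00444). Icam2, a constitutive adhesion ligand, had 2.41, 3.79 and 5.14 CPM as lowest, median and highest in invasive carcinoma and 4.44, 8.50 and 7.69 CPM in the normal samples, so the groups overlapped, with a log2 fold change of -0.88 ± 0.22 (adjusted p = 0.00193).

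The receptors Tek, Tie1 and Robo4 and the phosphatase Ptprb were lower in the carcinomas. Tek, the angiopoietin receptor TIE2, had 34.2, 38.7 and 41.5 CPM in the normal samples, and its median was 36.5 CPM in hyperplasia, 32.2 CPM in dysplasia, 23.7 CPM in carcinoma in situ and 19.9 CPM in invasive carcinoma. Hyperplasia overlapped the normal samples, and both carcinoma stages lay below every normal sample. Tek fell by 0.66 ± 0.12 in the carcinomas against the premalignant stages (adjusted p = 0.000135), the lowest value among the pan-endothelial genes in that comparison. Its partner Tie1 fell by 0.53 ± 0.09 (adjusted p = 0.000104), and Ptprb, the phosphatase that restrains TIE2, by 0.56 ± 0.10 (adjusted p = 0.000148). Robo4, a receptor that stabilises vessels, averaged 9.74 ± 1.81 CPM in invasive carcinoma and 16.5 ± 2.32 in normal tissue, and fell by 0.47 ± 0.09 in the carcinomas against the premalignant stages (adjusted p = 0.000218).

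The promoters of Tek and Robo4 are shown as examples of genes that fell. They are RefSeq windows on GRCm38.p6, 250 bases before to 50 bases after the gene's start in RefSeq, both on the plus strand, at chr4:94739039-94739338 for Tek and chr9:37401722-37402021 for Robo4, whose RefSeq start lies downstream of the one in the annotation used for exon lengths. Capitals mark matches on either strand to the ETS family core AGGAA, the NF-kB type letters GGANNTTCC, the AP-1 letters TGANTCA or the GATA factor letters AGATAA, and no matches to different motifs overlap here.
Tek: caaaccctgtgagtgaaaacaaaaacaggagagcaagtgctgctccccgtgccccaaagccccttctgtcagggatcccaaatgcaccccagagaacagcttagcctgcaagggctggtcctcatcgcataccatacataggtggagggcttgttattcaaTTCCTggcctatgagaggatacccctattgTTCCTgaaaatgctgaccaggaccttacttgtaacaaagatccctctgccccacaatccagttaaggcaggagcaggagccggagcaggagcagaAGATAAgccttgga
Robo4: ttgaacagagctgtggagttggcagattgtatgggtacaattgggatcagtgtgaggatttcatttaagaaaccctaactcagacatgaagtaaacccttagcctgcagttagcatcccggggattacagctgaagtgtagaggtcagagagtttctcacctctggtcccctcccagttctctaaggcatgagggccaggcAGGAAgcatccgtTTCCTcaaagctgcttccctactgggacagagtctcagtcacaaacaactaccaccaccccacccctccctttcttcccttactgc
Tek held 2 AGGAA matches and 1 AGATAA match, and Robo4 held 2 AGGAA matches. Of 28 promoter windows found for 22 of the members, 22 (78.6%) held AGGAA and 4 (14.3%) held AGATAA, against 66.7% and 11.2% of all 32851 windows of the same length. These are matches of letters and not sites of binding.

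Adgrl4, an adhesion receptor of endothelium, had the lowest log2 fold change of the pan-endothelial genes in invasive carcinoma against normal tissue. It had 41.1, 40.3 and 37.3 CPM in the normal samples, and its median was 29.7 CPM in hyperplasia, 25.4 CPM in dysplasia, 21.9 CPM in carcinoma in situ and 16.1 CPM in invasive carcinoma. The highest invasive sample, at 23.97 CPM, lay under the lowest normal one. The change was -0.66 ± 0.19 in dysplasia (adjusted p = 0.0113, and 0.0546 without D02), -0.91 ± 0.19 in carcinoma in situ (0.000759) and -1.20 ± 0.19 at the invasive stage (3.5e-05).

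Gpihbp1, which anchors lipoprotein lipase on capillaries, was already lower in hyperplasia. It had 34.3, 22.5 and 15.4 CPM in the normal samples, and its median was 14.8 CPM in hyperplasia, 12.1 CPM in dysplasia, 11.4 CPM in carcinoma in situ and 10.3 CPM in invasive carcinoma. The normal samples differed by more than 2-fold among themselves, and hyperplasia overlapped the lowest of them. The log2 fold change was -0.65 ± 0.20 in hyperplasia (adjusted p = 0.0328) and -1.16 ± 0.21 in invasive carcinoma (0.000132). Without D01, the highest normal sample, the hyperplasia value was -0.31 (adjusted p = 0.349), and that call was also lost without D02 (0.067) or A07 (0.0545). An 8-gene adipocyte list, another tissue with lipoprotein lipase, had 1 of 7 tested genes lower in hyperplasia, where 6.07% of all genes were. The summed level of that list was 99.9 to 249 CPM in hyperplasia and 155 to 560 CPM in normal tissue, and its part in the Gpihbp1 result was not tested.

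Of the other surface and signalling genes, Mmrn2 (an extracellular matrix glycoprotein, log2 fold change -0.73 ± 0.15), Cd34 (a sialomucin also on stem cells and fibroblasts, -0.63 ± 0.16), Egfl7 (a secreted endothelial factor, -0.75 ± 0.18), Ramp2 (which forms the adrenomedullin receptor with Calcrl, -0.95 ± 0.17), Emcn (a sialomucin of veins and capillaries, -0.57 ± 0.17) and Nos3 (nitric oxide synthase, -0.56 ± 0.17) were lower in invasive carcinoma than in normal tissue, with adjusted p from 0.000114 to 0.00899. The calls of Emcn and Nos3 were lost without D02 (adjusted p = 0.131 and 0.0807). Rasip1, a regulator of vessel lumens, was not called there (-0.33 ± 0.14, adjusted p = 0.0576) but was lower in the carcinomas than in the premalignant stages (-0.25 ± 0.08, adjusted p = 0.0142). Clec14a, a C-type lectin, was called in neither (-0.71 ± 0.34 and -0.40 ± 0.19, adjusted p = 0.093 and 0.102), and 1 dysplasia sample and 1 invasive sample stood far above their groups. Reads of some of these genes could be shared with neighbours, because exons of Ramp2 overlap Vps25 over 33.4% of their bases and exons of Rasip1 overlap Izumo1 over 20.4%, on the same strand, and Nos3 overlaps the well expressed Atg9b on the other strand over 7.12%.

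**Figure D2:**
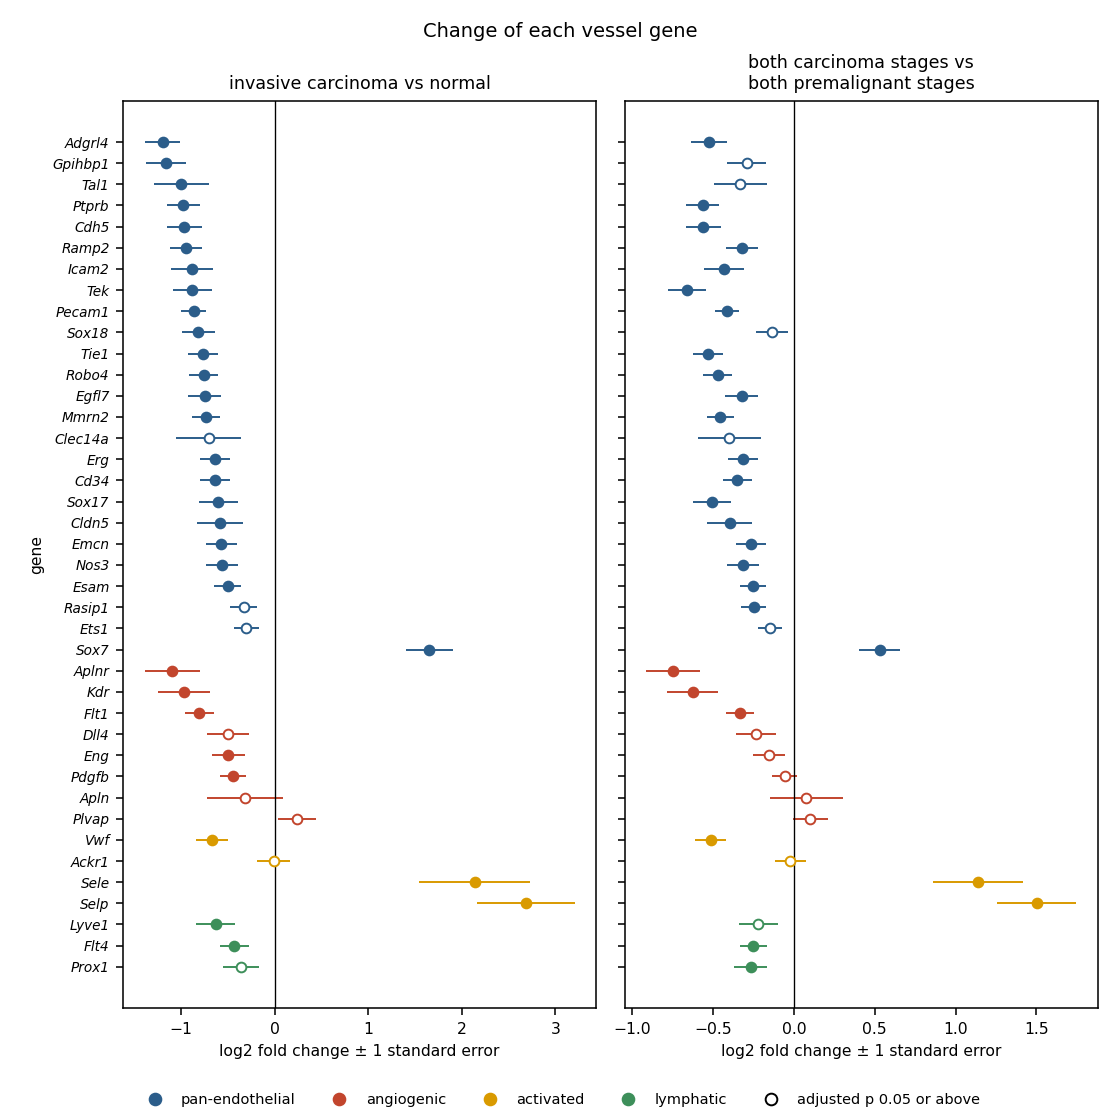
Log2 fold change of each of the 40 vessel genes (points) with 1 standard error (bars), for invasive carcinoma against normal tissue (left) and both carcinoma stages against both premalignant stages (right), coloured by group; filled points have an adjusted p under 0.05. Pan-endothelial genes run from -1.20 upwards on the left with Sox7 alone above 0, and Sele and Selp lie farthest to the right in both panels.

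The 6 transcription factors did not move as one. Sox7, a SOXF factor of developing vessels, was higher at every stage than in normal tissue. It had 19.6, 13.7 and 17.9 CPM in the normal samples. The lowest, median and highest values were 19.7, 29.6 and 40.8 CPM in hyperplasia, 34.5, 47.8 and 60.7 in dysplasia, 35.2, 55.4 and 75.7 in carcinoma in situ, and 38.6, 48.8 and 79.7 in invasive carcinoma. All 27 later samples lay above all 3 normal ones. The log2 fold change was 0.82 ± 0.24 in hyperplasia (adjusted p = 0.0204), 1.44 ± 0.25 in dysplasia (0.00033), 1.67 ± 0.25 for carcinoma in situ (4.19e-05) and 1.65 ± 0.25 for invasive carcinoma (2.4e-05), which is 3.14-fold with a 95% interval of 2.23 to 4.43. Sox7 was also the 1 member higher in dysplasia than in hyperplasia (0.63 ± 0.17, adjusted p = 0.0295), although leaving out any of A01, A02, A04, A06, B03, B04, B06 or B07 ended that call (adjusted p from 0.051 to 0.0811). Its hyperplasia call was lost without D02 (0.182) or D03 (0.065). The 10 basal keratinocyte genes summed to 8790 to 21873 CPM in invasive carcinoma and 4995 to 6400 CPM in normal tissue, and their part in the Sox7 result was not tested. No annotated exon of another gene overlaps those of Sox7.

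Its relatives Sox17 and Sox18 were lower in invasive carcinoma. Sox17, a factor of arteries, averaged 4.73 ± 1.32 CPM in invasive carcinoma and 7.19 ± 0.886 in normal tissue (log2 fold change -0.60 ± 0.21, adjusted p = 0.019, and 0.0877 without D02). Sox18, which also acts early in lymphatic development, had 13.2, 12.4 and 8.66 CPM in the normal samples and medians of 6.39 CPM in hyperplasia, 10.2 CPM in dysplasia, 8.42 CPM in carcinoma in situ and 6.29 CPM in invasive carcinoma. Hyperplasia and invasive carcinoma had the lowest levels and dysplasia lay between them and normal tissue. Sox18 fell by 0.72 ± 0.17 in hyperplasia (adjusted p = 0.0054) and by 0.81 ± 0.18 in invasive carcinoma (0.00061), whereas dysplasia gave -0.29 ± 0.18 (0.225).

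Leaving out 1 normal sample ended the calls of the ETS factor Erg and the bHLH factor Tal1 against normal tissue. Erg, which maintains endothelial identity, fell by 0.63 ± 0.16 in invasive carcinoma (adjusted p = 0.00252), but its value was -0.37 without D02 (0.082). In the carcinomas against the premalignant stages Erg fell by 0.32 ± 0.09 (0.00832). The ETS factor Ets1, which lymphocytes also express, averaged 24.3 ± 1.51 CPM in invasive carcinoma and 29.9 ± 4.85 in normal tissue and was not called in any comparison (-0.30 ± 0.13, adjusted p = 0.059 in this one). Tal1, a factor of blood and endothelial precursors, had 7.32, 1.97 and 2.55 CPM in the normal samples and 1.65, 1.91 and 2.44 as lowest, median and highest in invasive carcinoma. The called change (-0.996 ± 0.292, adjusted p = 0.00675) rested on D01, without which it was -0.19 (0.598), and the called change in carcinoma in situ (-0.77 ± 0.29, 0.0382) became 0.04 (0.927) without D01 and was also lost without C02 (0.0506) or C07 (0.0744). D01 and B01, the samples with the highest Tal1 of their stages, also had the highest summed level of a 7-gene red cell list, 949 and 610 CPM, and the part of red cell precursors in the Tal1 level was not tested.

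Of the 8 angiogenic genes, 5 were lower and none higher in invasive carcinoma than in normal tissue, with a median of -0.49. Kdr, the main VEGF receptor VEGFR2, averaged 34.3 ± 11.02 CPM in invasive carcinoma and 66.98 ± 21.4 in normal tissue (log2 fold change -0.96 ± 0.28, adjusted p = 0.00614, and -0.75 with 0.0603 without D02). In the carcinomas it fell by 0.62 ± 0.16 against the premalignant stages (adjusted p = 0.00319). Flt1, VEGFR1, had 93.9, 93.4 and 89.8 CPM in the normal samples and medians of 77.4, 66.3, 56.4 and 53.3 CPM at the 4 later stages in order. Every later sample lay below every normal one. Its log2 fold change was -0.80 ± 0.15 in invasive carcinoma (adjusted p = 0.000168), and it was also called lower in dysplasia (-0.50 ± 0.15, 0.0153, and 0.0618 without D02).

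Aplnr, the apelin receptor of sprouting vessels and veins, had its lowest mean in invasive carcinoma. It had 6.503, 22.9 and 19.6 CPM in the normal samples, and the lowest, median and highest values were 10.4, 17.7 and 24.5 in hyperplasia, 12.6, 15.4 and 17.6 in dysplasia, 9.02, 12.9 and 16.9 in carcinoma in situ, and 5.005, 6.68 and 12.8 in invasive carcinoma. D01 was as low as the invasive samples, so the groups overlapped. Invasive carcinoma against carcinoma in situ gave -0.76 and was not called (adjusted p = 0.624), so the stage of the fall is not settled. Aplnr fell by 1.09 ± 0.29 in invasive carcinoma against normal tissue (adjusted p = 0.00336, and 0.0624 without D02) and by 0.75 ± 0.17 in the carcinomas against the premalignant stages (0.000995), the lowest value of all 40 members in that second comparison. Its ligand Apln, made by tip cells, was uneven, with 1.46, 8.16 and 6.42 CPM in the normal samples and 1.81, 2.94 and 10.5 as lowest, median and highest in invasive carcinoma, and no comparison called it (-0.32 ± 0.41, adjusted p = 0.548 in invasive carcinoma).

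Plvap, which forms the diaphragms of fenestrated and permeable new capillaries, was called in no comparison at the library scale. It had 15.2, 22.2 and 20.9 CPM in the normal samples. Its lowest, median and highest values were 20.8, 24.5 and 28.9 CPM in hyperplasia, 16.2, 23.05 and 26.5 in dysplasia, 19.6, 24.6 and 43.4 in carcinoma in situ, and 14.7, 22.95 and 29.97 in invasive carcinoma. The invasive and normal samples overlapped, with a fold of 1.18 and a 95% interval of 0.893 to 1.55 (adjusted p = 0.357). Eng, a TGF-beta coreceptor of dividing endothelium, averaged 57.2 ± 13.5 CPM in carcinoma in situ and 64.2 ± 6.86 in normal tissue (adjusted p = 0.484), and was lower in invasive carcinoma, at 45.7 ± 12.2 CPM (-0.49 ± 0.18, 0.0248). That call was lost without D03 (0.123), C06 (0.0555) or C08 (0.0528). Pdgfb, which recruits pericytes, was lower in invasive carcinoma (-0.45 ± 0.14, adjusted p = 0.00889, and 0.0541 without D02), and Dll4, the Notch ligand of tip cells and arteries, gave -0.49 ± 0.22 (0.069).

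Of the 4 genes of activated vessels, both selectins were higher in invasive carcinoma and Vwf was lower. Selp, P-selectin, which is stored in endothelial granules and platelets and catches leukocytes, had 3.09, 1.91 and 2.20 CPM in the normal samples. Its values were 4.19, 6.97 and 9.31 CPM (lowest, median and highest) in hyperplasia, 4.02, 5.52 and 6.51 in dysplasia, 4.41, 17.1 and 43.1 in carcinoma in situ, and 8.17, 13.2 and 29.9 in invasive carcinoma. All later samples lay above the normal ones, and 8 of the 12 carcinomas lay above every premalignant sample. The log2 fold change was 1.48 ± 0.49 in hyperplasia (adjusted p = 0.0407), 1.20 ± 0.49 in dysplasia (0.0707, not called), 2.999 ± 0.530 in carcinoma in situ (0.000201) and 2.68 ± 0.52 at the invasive stage (0.000236). The hyperplasia call was lost without any 1 of D01, D02, D03, A01, A02, A05, A06 or A08 (adjusted p from 0.0511 to 0.204). Selp was the 1 member called between carcinoma in situ and dysplasia (1.80 ± 0.35, adjusted p = 0.00832), where 2.99% of all genes were called higher and 2.47% lower. Fitting only those stages gave an adjusted p of 0.0547. The carcinomas were above the premalignant stages by 1.501 ± 0.244 (adjusted p = 6.37e-05), a fold of 2.83 with a 95% interval of 2.03 to 3.94.

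Sele, E-selectin, which inflamed endothelium makes anew, was the least abundant of the activated genes, with 10 to 203 counts per sample. It had 0.976, 0.845 and 0.440 CPM in the normal samples and medians of 1.62 CPM in hyperplasia, 1.66 CPM in dysplasia, 3.41 CPM in carcinoma in situ and 2.94 CPM in invasive carcinoma. The change was 2.46 ± 0.60 in carcinoma in situ (adjusted p = 0.00241), 2.14 ± 0.59 at the invasive stage (0.00452) and 1.14 ± 0.28 in the carcinomas against the premalignant stages (0.00231). C07 had the highest and C04 the lowest level of both genes in carcinoma in situ, and C09 the highest and C05 the lowest of both in invasive carcinoma, whereas in hyperplasia and dysplasia different samples were highest and lowest for each gene. A 9-gene platelet list had 3 genes with enough counts to test, 2 of them lower in invasive carcinoma than in normal tissue, where 22.7% of all genes were. It summed to 11.95 to 59.6 CPM in invasive carcinoma and 17.1 to 61.6 in normal tissue. A 9-gene neutrophil list summed to 1289 to 7062 CPM in invasive carcinoma and 4.28 to 15.9 in normal tissue. Of its 7 tested genes 4 were higher, where 23.4% of all genes were. In both lists some genes were at 0 in some samples (6 of 9 platelet and 5 of 9 neutrophil genes), and the part of these cells in the selectin result was not tested.

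The pair are neighbours on chromosome 1, both on the plus strand, with 57587 bases between the end of Sele and the start of Selp (GRCm38, 164048234 to 164057677 and 164115264 to 164150026). Their promoters are shown because they moved together, from chr1:164115014-164115313 for Selp and chr1:164047984-164048283 for Sele (RefSeq, GRCm38.p6), with capitals as above.
Selp: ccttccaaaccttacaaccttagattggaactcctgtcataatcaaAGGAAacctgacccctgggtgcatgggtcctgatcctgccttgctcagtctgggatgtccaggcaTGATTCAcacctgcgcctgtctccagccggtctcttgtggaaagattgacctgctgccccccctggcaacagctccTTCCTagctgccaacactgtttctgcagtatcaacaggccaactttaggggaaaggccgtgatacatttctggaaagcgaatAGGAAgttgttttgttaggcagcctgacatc
Sele: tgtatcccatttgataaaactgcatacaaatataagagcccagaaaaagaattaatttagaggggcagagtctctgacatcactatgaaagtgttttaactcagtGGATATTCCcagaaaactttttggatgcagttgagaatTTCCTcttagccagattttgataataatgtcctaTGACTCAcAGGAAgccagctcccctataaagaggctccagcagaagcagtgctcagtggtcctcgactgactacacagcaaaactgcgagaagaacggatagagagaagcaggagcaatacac
Sele held 1 GGANNTTCC match, 1 TGANTCA match and 2 AGGAA matches, and Selp held 1 TGANTCA match and 3 AGGAA matches. No other member window held GGANNTTCC or TGANTCA. Of the 28 member windows 3.57% held GGANNTTCC and 7.14% held TGANTCA. All windows held them in 4.26% and 7.81%, so neither was more common among the members. Sele and Selp are the 2 of 22 members with TGANTCA, and a match is a description of the sequence only.

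The other activated genes were not higher. Vwf, the clotting glycoprotein that shares storage granules with P-selectin, was lower in invasive carcinoma, at 26.99 ± 5.64 against 42.9 ± 6.10 CPM in normal tissue (log2 fold change -0.67 ± 0.17, adjusted p = 0.00269), with all 6 invasive samples below every normal one. Ackr1, the chemokine scavenger of venules, averaged 3.06 ± 0.640 CPM in invasive carcinoma and 3.08 ± 0.411 in normal tissue (adjusted p = 0.971), with a 95% interval of the fold of 0.782 to 1.26. Of the exon bases of Ackr1, 25.7% are shared with Cadm3 on the same strand, so its count is uncertain.

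**Figure D3:**
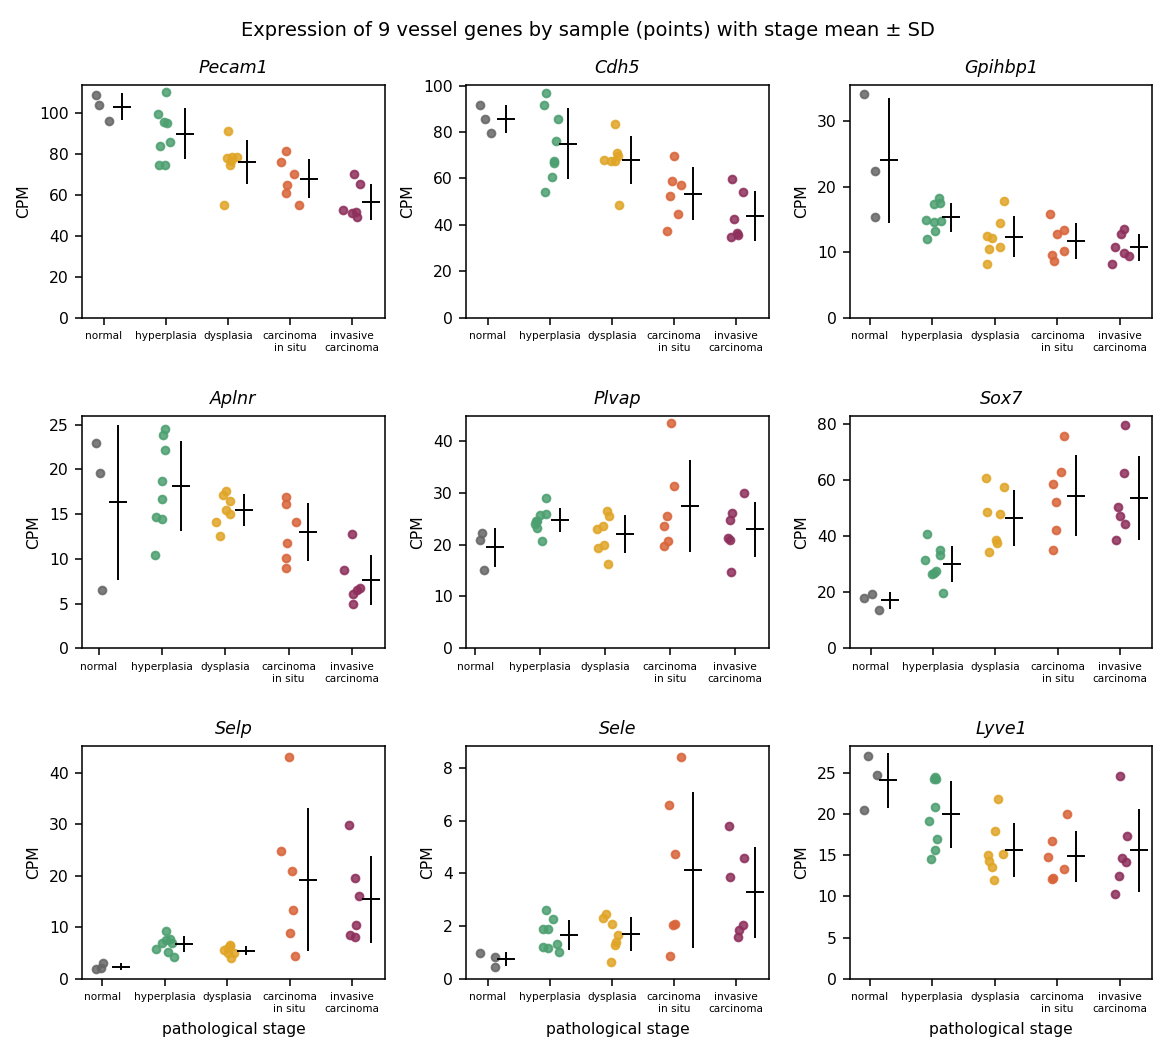
CPM of 9 vessel genes in every sample (points, coloured by stage) with the stage mean ± SD (black), from normal tissue on the left to invasive carcinoma on the right; each axis starts at 0 and n is 3, 8, 7, 6 and 6. Pecam1, Cdh5 and Gpihbp1 step down, Aplnr is low in invasive carcinoma, Plvap overlaps between stages, and Sox7, Selp and Sele are higher in the carcinomas than in normal tissue.

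Of the 3 lymphatic genes, Lyve1 and Flt4 were lower in invasive carcinoma than in normal tissue and none was higher. Lyve1, the hyaluronan receptor of lymphatic capillaries that some macrophages also carry, had 24.7, 20.5 and 26.99 CPM in the normal samples and medians of 19.99 CPM in hyperplasia, 14.99 CPM in dysplasia, 14.05 CPM in carcinoma in situ and 14.4 CPM in invasive carcinoma. Its level was lower from dysplasia on and did not step down further: the log2 fold change was -0.62 ± 0.21 in dysplasia (adjusted p = 0.0277), -0.70 ± 0.21 for carcinoma in situ (0.0112) and -0.63 ± 0.21 for invasive carcinoma (0.0167). Each call was lost without D03 (adjusted p = 0.115, 0.0612 and 0.0829 in the same order), the dysplasia call also without D01 (0.0681), D02 (0.0536) or B04 (0.0521), and the invasive call also without D01 (0.0507). Flt4, the VEGF-C receptor VEGFR3, averaged 9.79 ± 2.27 CPM in invasive carcinoma and 13.2 ± 1.04 in normal tissue (-0.43 ± 0.15, adjusted p = 0.0229, and 0.0986 without D03). Prox1, the regulator of lymphatic identity, had the lowest level per length of the 40 genes, 0.285 CPM per kb, with 39 to 86 counts per sample. It averaged 2.03 ± 0.347 CPM in invasive carcinoma and 2.60 ± 0.538 in normal tissue (adjusted p = 0.124), and its call in the carcinomas against the premalignant stages (-0.27 ± 0.10, adjusted p = 0.0434) was lost when any of 21 samples was left out (adjusted p from 0.0503 to 0.0817).

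Few members were called between neighbouring stages. Between dysplasia and hyperplasia, Sox7 and Esam were the 2 members called, where 2.99% of all genes were higher and 2.19% lower, and 1 of the 2 was left without A01, A02, A04, A06, B03 or B04. No member was called between invasive carcinoma and carcinoma in situ, and no gene was (0% in either direction, smallest adjusted p over all genes 0.434). At an unadjusted p under 0.05 edgeR found 9 members and 1259 of all genes there, and DESeq2 and limma-voom also called no member. The sign was negative for 38 of the 40 members in that comparison, with a median log2 fold change of -0.23. The median over all genes was -0.0068, and the share of negative signs over all genes was not counted. All 40 signs come from the same 12 samples and are not independent, so they do not establish a fall between these stages.

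Scaling each library to the summed counts of the 25 pan-endothelial genes asks how the other 15 genes changed relative to that sum. The sum is not a pure measure of endothelial RNA, because it includes Cd34, which fibroblasts also carry, and Sox7, which rose. Sox7 averaged 17.1 CPM in normal tissue and 53.8 in invasive carcinoma, where the 25 genes summed to 820 and 521 CPM on average. Without the TMM scaling that CPM carry, the counts of the 25 genes took 0.0753% ± 0.00103 of a library for normal tissue (mean and SD). The share was 0.0765% ± 0.00805 for hyperplasia, 0.0663% ± 0.00567 for dysplasia, 0.0616% ± 0.00761 for carcinoma in situ and 0.0529% ± 0.00896 for invasive carcinoma. Hyperplasia was thus above normal tissue by this share, but below it by summed CPM (762 against 820). The scaling raised the median of all genes to 0.35 in the carcinomas against the premalignant stages, and called 62.5% of all genes higher and 2.83% lower. Selp (1.93 ± 0.28, adjusted p = 6.08e-06), Sele (1.55 ± 0.31), Plvap (0.46 ± 0.12, 0.00188), Ackr1 (0.34 ± 0.10), Pdgfb (0.31 ± 0.08) and Eng (0.19 ± 0.07, 0.0177) were higher on this scale, and of these Plvap, Ackr1, Pdgfb and Eng were not called at the library scale. Aplnr (-0.39 ± 0.13, 0.0103), Kdr (-0.29 ± 0.11, 0.0213) and Vwf (-0.17 ± 0.07, 0.0255) were lower, so they fell further than the pan-endothelial sum with Sox7 in it. Sox7 was called higher in this comparison, so a sum without it would have fallen more. Whether Aplnr, Kdr and Vwf also fell further than such a sum was not tested. In invasive carcinoma against normal tissue, where the median of all genes was 0.70 and 61.8% were called higher and 3.2% lower, Plvap (0.91 ± 0.24, adjusted p = 0.00132), Ackr1, Selp and Sele were higher and none of the 15 genes was lower. Ackr1, Eng and Pdgfb lay below the median of all genes in the first of these comparisons, and Selp, Sele, Plvap and Apln above it.

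**Figure D4:**
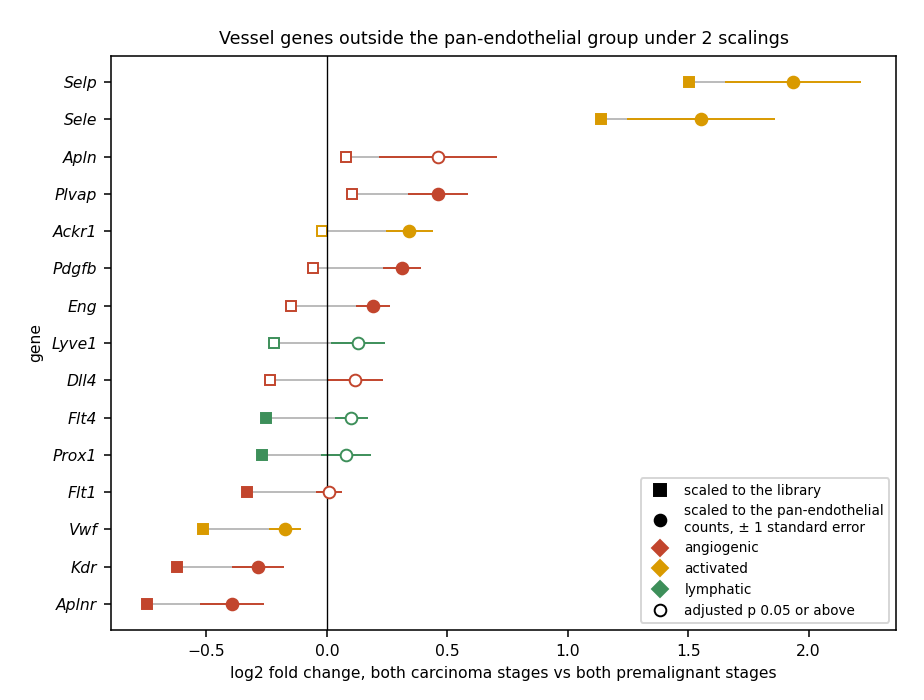
Log2 fold change of the 15 angiogenic, activated and lymphatic genes in both carcinoma stages against both premalignant stages, scaled to the library (squares) and to the summed pan-endothelial counts (circles, ± 1 standard error); filled symbols have an adjusted p under 0.05. The second scaling shifts every gene to the right, with Selp and Sele farthest right and Vwf, Kdr and Aplnr still below 0.

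Because the muscle genes were lower along the same stages, the fit was repeated with the skeletal muscle score, the mean log2 CPM of the 20 muscle genes, as a covariate. In invasive carcinoma against normal tissue 4 members were then lower and 2 higher, where 4.26% of all genes were lower and 6.72% higher, and the median of the pan-endothelial genes was -0.34 in place of -0.75. Pecam1, Adgrl4, Ramp2 and Sox18 were the 4 lower and Sox7 and Selp the 2 higher. In the carcinomas against the premalignant stages 14 members were lower and 3 higher, where 10.9% of all genes were lower and 12.9% higher. Pecam1, Cdh5, Tie1, Tek, Ptprb, Mmrn2, Adgrl4, Cd34, Robo4, Sox17, Kdr, Flt1, Aplnr and Vwf were those 14, and Sox7, Selp and Sele the 3. None of the lymphatic genes was called in either comparison in this fit.

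Further lists hold other genes of the vessel wall and its supply, and their counts are for invasive carcinoma against normal tissue, where 22.7% of all genes were called lower and 23.4% higher. In a list of 18 further endothelial genes, 13 were lower and none higher in invasive carcinoma against normal tissue (median -0.66), with She, a signalling adaptor of endothelium, at 6.44 ± 0.957 against 12.9 ± 1.26 CPM (-0.999 ± 0.164, adjusted p = 4.41e-05), Cd300lg, a receptor of capillaries and venules, at -1.25 ± 0.19 (1.93e-05), Tspan7, a tetraspanin, at -0.65 ± 0.13 (0.000194) and Cd93, a glycoprotein of endothelium and myeloid cells, at -0.62 ± 0.17 (0.00409). Genes of capillary fatty acid and water handling were lower in 9 of 10 (median -1.23). Cd36, a fatty acid carrier that muscle and adipocytes also express, had 228 ± 69.2 CPM in invasive carcinoma and 668 ± 227 in normal tissue (-1.55 ± 0.23, adjusted p = 1.5e-05). Rgcc, a cell cycle regulator high in capillaries, was lower from hyperplasia on (-0.78 ± 0.17 there, 0.00249, and -1.24 ± 0.18 in invasive carcinoma), Tcf15, a transcription factor of capillaries in muscle and fat, fell by 1.4999 ± 0.3116 (0.000376), and the water channel Aqp1 by 0.75 ± 0.18 (0.0017). In the arterial and venous list 5 of 11 were lower and 1 higher, against the same 22.7% and 23.4% of all genes. The arterial genes Sema3g (-0.83 ± 0.17) and Nrp1 (-0.65 ± 0.21) and the vein factor Nr2f2 (-0.60 ± 0.16) fell, and Icam1, a leukocyte ligand that inflamed endothelium and other cells display, was higher (0.84 ± 0.17, adjusted p = 0.000272).

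The growth factor list was lower in 8 of 14 and higher in 3 (median -0.56), where 22.7% of all genes were lower and 23.4% higher, so the number higher was near that share. Nrp2, a coreceptor for VEGF-C, fell by 0.88 ± 0.15 (adjusted p = 7.82e-05), Vegfb by 0.97 ± 0.20 (0.000403) and Angptl4, a lipase inhibitor, by 1.33 ± 0.41 (0.0105), whereas Efna1, an ephrin that epithelium also makes, was higher (0.43 ± 0.15, 0.0203). In the list of tip cell and new vessel genes 3 of 12 were higher, near the 23.4% of all genes, and 1 lower: Igfbp3 at 254 ± 96.3 against 87.6 ± 15.1 CPM (1.54 ± 0.35, 0.000865), Itga6, an integrin that basal keratinocytes also carry (1.23 ± 0.28, 0.000747), Trp53i11 (0.53 ± 0.13, 0.00219), and Unc5b, a netrin receptor of tip cells, lower (-0.49 ± 0.20, 0.0457). Mcam, an adhesion molecule of vessels and pericytes, was higher in hyperplasia than in normal tissue, at 61.9 ± 3.70 against 24.9 ± 3.50 CPM (1.32 ± 0.13, adjusted p = 3.8e-07, and 0.0978 to 0.537 at the other stages), and it was lower in dysplasia than in hyperplasia by the test of that difference (-1.20 ± 0.10, 3.5e-09).

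In the further lymphatic list, 2 of 12 genes had too few counts to test, 6 were lower and 2 higher in invasive carcinoma (median -0.65), where 22.7% and 23.4% of all genes were. Reln (-0.89 ± 0.23, adjusted p = 0.00244) and Gata2, a factor of lymphatic valves and blood cells (-0.98 ± 0.21, 0.000465), fell. Pdpn, podoplanin, which cancer cells and fibroblasts also make, was higher at 17.2 ± 3.58 against 8.43 ± 1.30 CPM (1.03 ± 0.18, 9.71e-05), and so was the polarity gene Pard6g (0.70 ± 0.16, 0.000697). In the mural cell list 6 of 12 were lower and none higher (median -0.63). The pericyte channel subunit Abcc9 (-0.98 ± 0.21, adjusted p = 0.000523), which muscle also expresses, Rgs5, a pericyte marker (-0.82 ± 0.19, 0.000967), and Des, desmin, which skeletal muscle shares (-0.88 ± 0.19, 0.00041), fell. The plot of all vessel lists shows the capillary list farthest to the left.

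**Figure D5:**
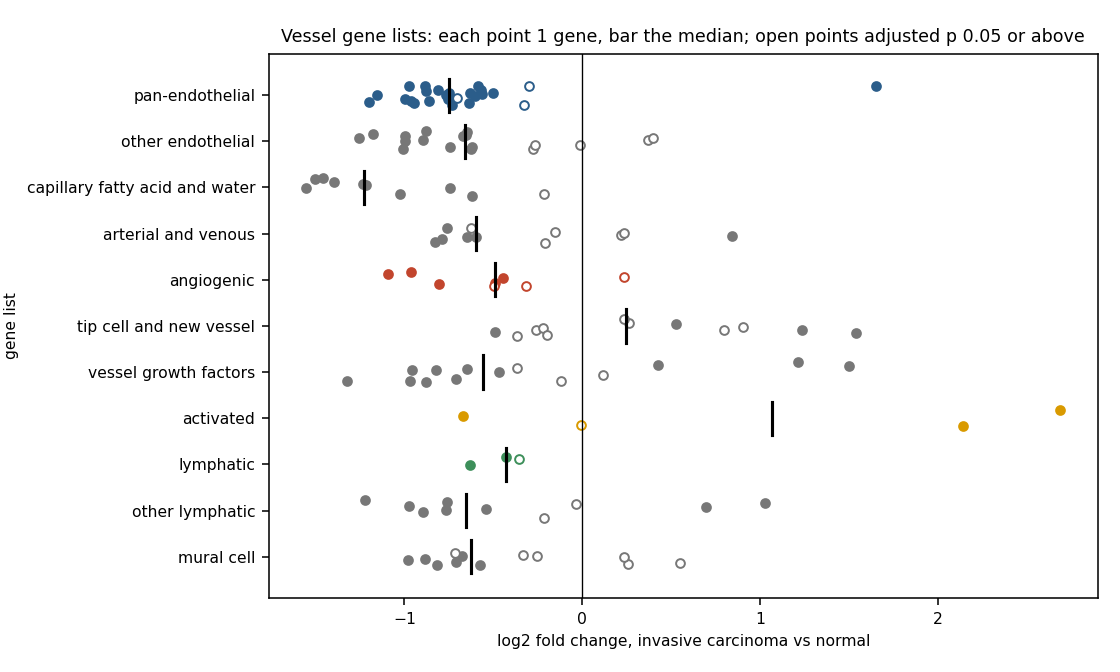
Log2 fold change in invasive carcinoma against normal tissue for every tested gene (points) of 11 vessel-related lists, with the median of each list as a bar; filled points have an adjusted p under 0.05 and grey marks lists other than the 40 genes. Medians run from -1.23 for capillary fatty acid and water genes to 1.06 for the 4 activated genes, where the selectins stand apart from Vwf and Ackr1.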

How the data were processed

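In 30 mouse samples RNA was sequenced from stranded mRNA libraries, per the labels' protocols. The submitters' processing notes name cutadapt 2.4, STAR 2.7.2a and the build GRCm38. The counting tool, its use of strand and the gene annotation behind the table are not given in the sources used here. The authors deposited raw counts, whole numbers for each Ensembl gene whose totals differ between libraries, in a single table. Symbols were matched through the supplied gene table (55141 of 55487 identifiers), and exon lengths came from the supplied GRCm38 annotation. Samples were grouped by labelled stage and none was left out.

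The main test was edgeR 4.0.16 (R 4.3.3) with TMM factors from 0.892 to 1.06 and its expression filter by stage, which kept 17638 genes. All 30 samples entered 1 quasi-likelihood model with a mean for each stage, tested in 8 two-sided comparisons and over all stages, with Benjamini-Hochberg adjustment within each. The biological coefficient of variation was 24.0%. The fit was also run on simulated counts, in which far fewer genes changed than were called in the same comparisons here. The outcome of that run is not given, and it cannot give the error rate in these data. List scores are mean log2 CPM with a prior count of 2. Intervals of 95% come from the same model. Reads carry no molecular identifiers, so they are not counts of molecules.

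The alternatives tried were other scaling factors (RLE, upper quartile), no expression filter, DESeq2 1.42.0, voom in limma 3.58.1, a fit to the compared groups alone, a threshold of 0.01, a skeletal muscle or salivary gland score as covariate, a block for sample number, scaling to the summed pan-endothelial counts, and leaving out each sample in turn. All members are named; in each of the 7 companion lists of vessel genes the 4 genes with the smallest p over all stages are named, with Unc5b added after its value was seen as the single gene lower in its list, while lists of other cell types are given as summaries. The members and lists were chosen with earlier results of these data known. Motifs were searched by exact letters in RefSeq promoters. Tables were made with pandas 2.3.3 and numpy 2.4.6 under Python 3.11.15, and figures with matplotlib 3.10.9.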

Additional observations from a re-analysis of the deposited data

Results flagged for a closer look

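Single samples that stood apart from the others of their stage were looked for in every member and every stage of 4 or more samples, by the gap to the nearest sample relative to the range of the group. Of 160 groups screened, 6 stood out. Chance alone gives about 1 in 20, so these 6 are no more than chance alone would give. Clec14a was 23.6 CPM in dysplasia sample B01, where the next value was 9.84, and 14.2 CPM in invasive sample C05, where the next was 7.28. Sox18 was 10.5 CPM in hyperplasia sample A08, against 7.84 for the next sample. Tal1 was 4.67 CPM in dysplasia sample B01 (next 2.698) and lowest, at 1.58 CPM, in carcinoma in situ sample C07 (next 2.30). Prox1 was 3.23 CPM in carcinoma in situ sample C04, against 2.28 for the next.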

How the results depend on the processing

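Under RLE factors no count of called members left 1.5 times its value, and upper-quartile factors, DESeq2 and the salivary gland score changed it only between carcinoma in situ and dysplasia (2, 3 and 2 in place of 1). Other counts that moved, in place of 4 (hyperplasia), 8 (dysplasia), 25 (carcinoma in situ) and 32 (the invasive stage) against normal tissue, 2 (dysplasia against hyperplasia), 1 (carcinoma in situ against dysplasia), 28 (carcinomas against premalignant stages) and 31 (any stage), are as follows. The share of all genes called is not given beside these counts. A count may therefore differ because calls over all genes differ, and is not a result about vessel genes alone. With the muscle score the counts were 1 for dysplasia, 7 for carcinoma in situ, 6 for invasive carcinoma and 1 for dysplasia against hyperplasia. They were 8 for carcinoma in situ against dysplasia, 17 for the carcinomas and 14 for any stage. Whether the numbers in the sample codes pair the samples was not settled. Deviations from the stage means were correlated above 0.1 in 11 of 31 same-number pairs, from -0.564 to 0.512. The median was 0.0489 for same-number pairs and -0.00384 for other pairs. Such correlations cannot decide on pairing, because any difference in tissue content enters them too. With the replicate block the counts were 2 for hyperplasia, 15 for invasive carcinoma and 9 for dysplasia against hyperplasia. At an adjusted p under 0.01 they were 1 for hyperplasia, 2 for dysplasia, 11 for carcinoma in situ and 1 for dysplasia against hyperplasia. Limma-voom gave 16 for dysplasia, 14 for dysplasia against hyperplasia and 5 for carcinoma in situ against dysplasia; only the groups compared gave 13, 7 and 0 for the same. Without the filter there were 2 for hyperplasia and 1 for dysplasia against hyperplasia. Leaving out 1 sample gave 1 to 5 for hyperplasia, 3 to 11 for dysplasia, 15 to 27 for carcinoma in situ, 24 to 34 for invasive carcinoma, 1 to 3 for dysplasia against hyperplasia, 1 to 6 for carcinoma in situ against dysplasia, 0 between the carcinoma stages, 27 to 31 for the carcinomas and 30 to 35 for any stage; the lowest 4 counts against normal tissue came without D02. Called signs turned in 8 cases. Tal1 in carcinoma in situ ran from -1.09 without D02 to 0.0382 without D01. On the pan-endothelial scale Flt1 (0.00982), Flt4 (0.101) and Prox1 (0.0805) turned in the carcinomas against the premalignant stages, and Eng (0.146), Pdgfb (0.236), Flt4 (0.214) and Lyve1 (0.0107) in invasive carcinoma, by the construction of that scale; the cause of other changes was not tested. Sele had 10 to 203 and Prox1 39 to 86 counts per sample, so counting error limits their precision, and 3 normal samples limit each comparison that uses them.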
